A study of Mus musculus with 24 samples.

Results

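The genes described here are 9 receptors through which myeloid cells sense chemokines and other chemoattractants: *Ccr1*, *Ccr2*, *Ccr7*, *Cxcr2*, *Cxcr4*, *Cx3cr1*, *Ccrl2*, *Cmklr1* and *Fpr1*. They were picked by name as a family of receptors, and all 9 were found by their Ensembl identifiers among the 17301 genes of the expression table. Each of the 9 was among the 12878 genes that reached a mean RPKM (reads per kilobase of gene, scaled to the library's size) of at least 1 in at least 1 group and were therefore tested. RNA of 4 sorted myeloid populations was sequenced from colon lamina propria (LP) and from colon tumours, with 3 libraries in each of the 8 groups. The populations were F4/80hi MHCIIhi macrophages, F4/80hi MHCIIlow macrophages, Ly6Chi MHCII- monocytes and Ly6Ghi F4/80- CD11b+ neutrophils. LP came from C57BL/6J mice, labelled as healthy, and tumours from *Apc* Min/+ mice on the same background, which carry a germline *Apc* mutation in every cell and were given dextran sodium sulphate to speed up colon adenomas. All mice were young adults of both sexes, and each library was made from the pooled tissue of several mice under 1 donor number. The methods describe dextran sodium sulphate for control mice too, so that the treatment of the LP donors is not settled. LP and tumours were also digested and enriched in different ways. Tissue, *Apc* genotype, treatment and digestion therefore cannot be told apart in any comparison of tumour with LP, and p-values measure only the spread between these libraries.

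Chemokine receptors are G protein-coupled receptors on leukocytes that bind chemokines, small secreted proteins laid down on cells and matrix, and turn their gradients into directed movement. Formyl peptide and chemerin receptors do the same for bacterial or mitochondrial peptides and for the protein chemerin. In the intestine, CCR2 is known for bringing Ly6Chi monocytes out of the blood, and CX3CR1 for marking the macrophages that these monocytes, or embryonic precursors, give rise to. CXCR2 and FPR1 guide neutrophils, and CCR7 takes dendritic cells to lymph nodes.

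The libraries held 12.8 to 41.7 M reads in genes (median 26.4 M). The deposited values carry a scaling between libraries, with library sizes of 0.466 to 1.51 times the reads counted. With sizes set to the reads counted instead, the median log2 difference over all genes tested moved from −0.12 to −0.59 for tumour minus LP neutrophils, from −0.24 to −1.07 for neutrophils minus monocytes in LP and from −0.36 to −1.49 in tumours. In the other comparisons of 2 groups it then lay between −0.16 and 0.41, and calls that this choice ends are given with their genes. The sorted populations carried their markers. The summed RPKM of 7 macrophage genes was 3703 to 7053 in macrophage libraries and 442 to 836 in the others, and that of 6 neutrophil genes was 10024 to 29493 in neutrophils and 23.3 to 299 elsewhere. Neutrophil libraries also carried eosinophil genes, 3 of which summed to 21.7 to 42.2 RPKM in LP and 20.6 to 30.8 in tumours, against 0.042 to 5.97 elsewhere. The part of eosinophil RNA in the neutrophil values was not tested. Epithelial genes, 6 in number, summed to 79.0 to 250.0 RPKM in tumour monocytes and 15.9 to 139 in LP monocytes, and to 124 to 246 in tumour and 10.2 to 45.9 in LP neutrophils. In macrophages they summed to 6.49 to 48.5 in tumour and 4.02 to 10.6 in LP MHCIIhi cells, and to 10.4 to 137 in tumour and 12.2 to 17.7 in LP MHCIIlow cells. Tumour MHCIIlow library I, at 137, also had the most *Fpr1* and *Ccrl2* of its group. In tumour monocytes, library I had the lowest sum but the most of both receptors. Among tumour MHCIIhi libraries, library I had the highest sum, the most *Ccrl2* and the least *Fpr1*. Among tumour neutrophils, library I had the highest sum and the most *Fpr1*, but not the most *Ccrl2*. The part of epithelial genes in the receptor values was not tested. Levels of the receptors are given as RPKM per library or as log2 RPKM (mean ± SD, n = 3 libraries). Differences are log2 differences with their standard error (SE) and a Benjamini-Hochberg adjusted p from limma, fitted over all genes tested. RNA was measured in bulk, so that fewer cells with a receptor and less receptor RNA per cell cannot be told apart.

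**Figure D1:**
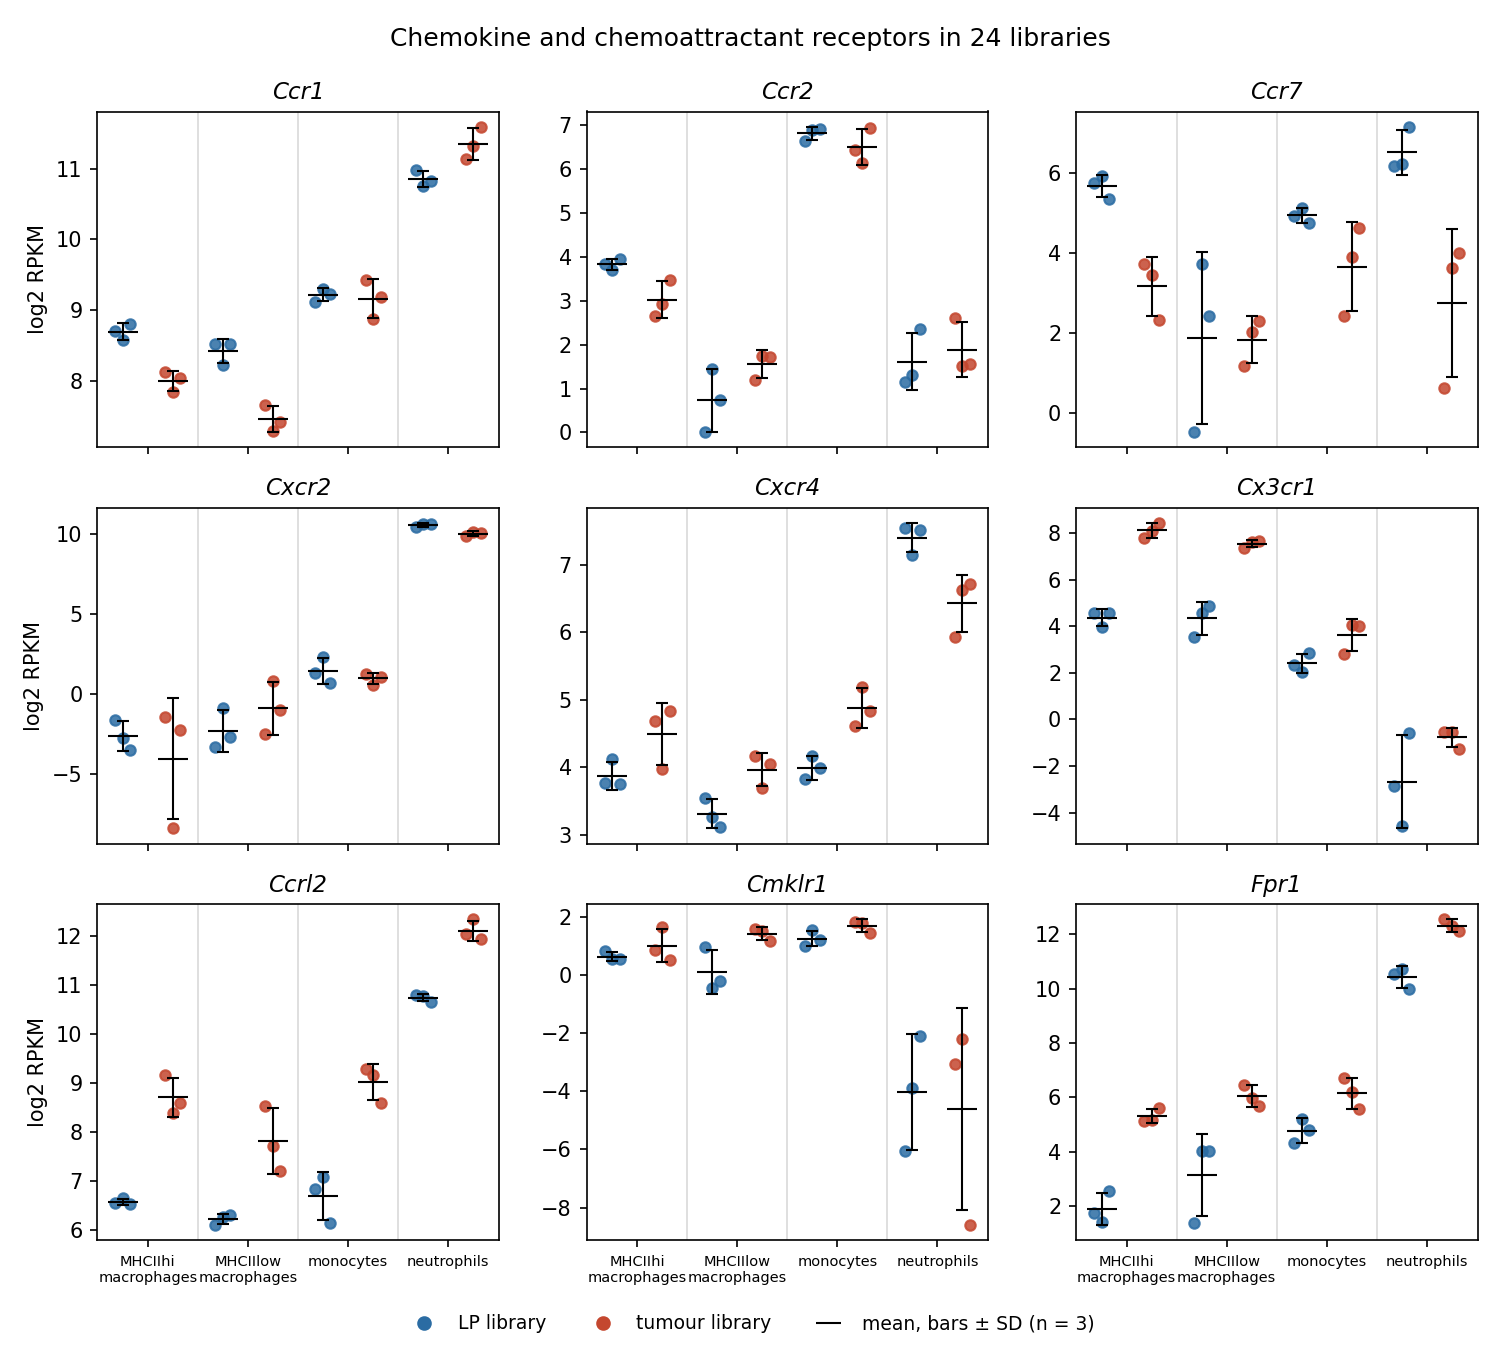
Level of each of the 9 receptors (log2 RPKM, vertical axes) in the 24 libraries, by population, with LP libraries in blue and tumour libraries in red; black lines are means and bars ± SD of 3 libraries. *Ccr2* was highest in monocytes, *Cx3cr1* in tumour macrophages and *Cxcr2*, *Fpr1*, *Ccrl2*, *Ccr1* and *Cxcr4* in neutrophils.

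*Ccr2* (ENSMUSG00000049103.9, chromosome 9 from 124101950 to 124113557 on GRCm38, plus strand) encodes the receptor for CCL2 and related monocyte chemokines. It stood at 99.7, 117 and 120 RPKM in LP monocytes and at 85.7, 70.0 and 121 RPKM in tumour monocytes. In macrophages it stood at 14.2, 13 and 15.5 RPKM in LP MHCIIhi, at 6.31, 7.62 and 11.1 in tumour MHCIIhi, at 1.00, 2.70 and 1.68 in LP MHCIIlow and at 2.29, 3.36 and 3.30 in tumour MHCIIlow cells. Every monocyte library thus lay above every macrophage library, and every MHCIIhi library above every MHCIIlow library. In mean log2 RPKM the order ran from LP monocytes (6.81 ± 0.15) and tumour monocytes (6.49 ± 0.40), which overlapped, through LP MHCIIhi (3.83 ± 0.13) and tumour MHCIIhi macrophages (3.02 ± 0.42), to tumour neutrophils (1.89 ± 0.62), LP neutrophils (1.61 ± 0.65), tumour MHCIIlow (1.55 ± 0.31) and LP MHCIIlow macrophages (0.73 ± 0.71). Neighbours among the last 4 groups overlapped. Relative to monocytes of the same tissue, *Ccr2* was lower in MHCIIhi macrophages by a log2 difference of −2.98 in LP (SE 0.36, limma adjusted p = 5.34e-06) and −3.47 in tumours (SE 0.36, limma adjusted p = 2.55e-07). In MHCIIlow macrophages the differences were −6.08 (limma adjusted p = 2.76e-10) and −4.94 (limma adjusted p = 2.79e-09), and in neutrophils −5.20 (limma adjusted p = 4.63e-10) and −4.60 (limma adjusted p = 1.84e-09). These 6 calls held under each of 16 alternative analyses, which changed the scaling, the filter, the test or the libraries left out.

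Between the macrophage subsets, *Ccr2* was lower in MHCIIlow than in MHCIIhi cells of LP (log2 difference −3.10, SE 0.36, limma adjusted p = 2.54e-05). In tumours the difference was −1.47 (SE 0.36) with no overlap of the libraries, and its limma adjusted p of 0.0529 missed the threshold. It passed in 7 of 16 alternatives, among them both fits with the donor number as a replicate block (adjusted p = 0.0201 with the block as a fixed term and 0.0426 as a random effect). Tumour against LP gave no call for *Ccr2* in any population. The log2 difference was −0.81 in MHCIIhi macrophages (SE 0.36, limma adjusted p = 0.131), where all 3 tumour libraries lay under all LP libraries and voom called it (−0.80, adjusted p = 0.0198), and 0.82 in MHCIIlow macrophages (limma adjusted p = 0.111), where the groups overlapped. Without LP MHCIIlow library III the latter became 1.18 (limma adjusted p = 0.0288). The difference between these opposite effects was 1.63 (SE 0.51, limma adjusted p = 0.129), and 1.98 (limma adjusted p = 0.0405) without the same library. Monocyte values were −0.32 (limma adjusted p = 0.685) and neutrophil values 0.28 (limma adjusted p = 0.596). Monocyte marker genes other than the receptors (*Ly6c2*, *Chil3*, *Plac8*, *F13a1* and *Vcan*) moved with the tissue in macrophages: their summed RPKM was 45.5 to 50.6 in LP MHCIIhi and 5.38 to 8.70 in tumour MHCIIhi, and 124 to 452 in LP MHCIIlow and 9.82 to 22.1 in tumour MHCIIlow cells. In monocytes the sum was 759 to 1165 in LP and 2699 to 3369 in tumours, and 0 of the 5 genes were called. Tumour MHCIIhi macrophages had 4 of the 5 called lower and 0 higher, against 19.5% of all genes. Tumour MHCIIlow macrophages had 2 lower and 0 higher, against 23.3%. In MHCIIlow cells the sum was thus lower in tumours, while the *Ccr2* difference was 0.82. LP MHCIIlow library II had the highest sum of its group, 452, and the lowest *Ccr2*, 1.00 RPKM. Between the LP subsets, 1 of the 5 genes was called higher in MHCIIlow cells and 0 lower, against 7.7% of all genes. The median log2 difference of the 5 was −0.24, so the higher sum of LP MHCIIlow cells was not shared by all 5. The part of the marker genes' carriers in the *Ccr2* values was not tested. Of the 51-base stretches of *Ccr2* transcripts, 1.86% also occur in other genes.

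*Cx3cr1* (ENSMUSG00000052336.6, chromosome 9 from 119901616 to 120069879, minus strand) encodes the receptor for fractalkine, CX3CL1, a chemokine that is tethered to membranes. It stood at 23.6, 15.4 and 23.7 RPKM in LP MHCIIhi macrophages and at 223, 273 and 343 RPKM in their tumour counterparts. In MHCIIlow macrophages it stood at 11.7, 23.9 and 29.1 RPKM in LP and at 164, 194 and 202 RPKM in tumours. The lowest tumour library was thus above the highest LP library in both subsets. The log2 difference was 3.75 in MHCIIhi (13.4-fold, SE 0.62, limma adjusted p = 2.02e-04) and 3.21 in MHCIIlow macrophages (9.25-fold, SE 0.62, limma adjusted p = 7.14e-04). Both calls held in all 15 alternatives. In monocytes, *Cx3cr1* stood at 5.11, 4.06 and 7.20 RPKM in LP and 7.10, 16.6 and 16.1 RPKM in tumours, a log2 difference of 1.22 that was not called (SE 0.62, limma adjusted p = 0.258) and was called in 2 of 15 alternatives. The macrophage effect exceeded the monocyte effect by 2.26 (SE 0.76, limma adjusted p = 0.0703). This difference missed the threshold, and was called in 5 of 27 alternatives. LP neutrophils held 12, 2 and 54 reads of the gene and tumour neutrophils 32, 21 and 12 reads. The log2 difference of 1.90 between them was called (SE 0.62, limma adjusted p = 0.0246) although the libraries overlapped. It was lost in 8 of 15 alternatives, including the fits without LP library III (adjusted p = 0.068), LP library IV (0.181), tumour library I (0.0671) or tumour library II (0.0687). Summed library sizes lost it too (limma adjusted p = 0.0781). Without LP library IV the difference was 0.95, and without LP library V 2.95.

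Within tissues, *Cx3cr1* was higher in macrophages than in monocytes. In LP the log2 difference was 1.95 for MHCIIhi (SE 0.62, limma adjusted p = 0.0312) and 1.92 for MHCIIlow cells (limma adjusted p = 0.0244). In tumours it was 4.48 (limma adjusted p = 1.05e-05) and 3.91 (limma adjusted p = 5.51e-05). The LP calls were lost in 4 of 16 alternatives each, with LP monocyte library III or IV left out in both (adjusted p from 0.0583 to 0.103), with MHCIIhi library III (0.0905) or V (0.093), and with MHCIIlow library III (0.072) or IV (0.0964). MHCIIlow against MHCIIhi macrophages gave no call, with log2 differences of −0.03 in LP (limma adjusted p = 1.0) and −0.57 in tumours (SE 0.62, limma adjusted p = 0.893). In the order of group means, tumour MHCIIhi (8.11 ± 0.31 log2 RPKM) and tumour MHCIIlow (7.54 ± 0.16) came first. LP MHCIIhi (4.36 ± 0.36), LP MHCIIlow (4.33 ± 0.69), tumour monocytes (3.63 ± 0.69) and LP monocytes (2.41 ± 0.42) followed, each overlapping its neighbour, and tumour (−0.77 ± 0.41) and LP neutrophils (−2.67 ± 2.01) came last. Its ligand *Cx3cl1* had group means from −1.87 to 0.98 log2 RPKM. Exons of the antisense gene *Gm33858* overlap 1.73% of the exonic bases of *Cx3cr1*, and the library protocol does not mark the strand.

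*Ccr2* was then set against *Cx3cr1* within each library, a ratio of 2 RPKM values that does not depend on the scaling between libraries. The log2 ratio of *Ccr2* to *Cx3cr1* was 4.40 ± 0.40 in LP monocytes and 2.86 ± 0.76 in tumour monocytes. In LP MHCIIhi macrophages it was −0.53 ± 0.26, with *Cx3cr1* at 1.67, 1.19 and 1.53 times the level of *Ccr2*. LP MHCIIlow macrophages stood at −3.60 ± 0.49, where *Cx3cr1* was 11.7, 8.84 and 17.3 times as high. The 2 genes were therefore nearly level in LP MHCIIhi macrophages, and *Cx3cr1* prevailed in LP MHCIIlow macrophages. In tumours the ratio was −5.08 ± 0.12 in MHCIIhi macrophages, with *Cx3cr1* 35.3, 35.8 and 30.9 times as high, and −5.98 ± 0.16 in MHCIIlow macrophages, with *Cx3cr1* 71.9, 57.9 and 61.1 times as high. Neutrophils had ratios of 4.28 ± 1.497 in LP and 2.66 ± 0.56 in tumours, on 2 to 54 reads of *Cx3cr1* per library.

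Over the 12 macrophage libraries, the ratio was lower in tumours by a log2 difference of −3.47, or 11.1-fold (two-sided exact permutation test of tissue within each MHCII level, p = 0.005, adjusted over 4 tests p = 0.01). It was lower in MHCIIlow than in MHCIIhi macrophages by −1.98, or 3.96-fold (two-sided exact permutation of MHCII level within tissue, p = 0.005, adjusted p = 0.01). Macrophages lay under monocytes by −6.46 in LP and by −8.40 in tumours (two-sided exact permutation tests, p = 0.0119 and adjusted p = 0.0119 for each). All 4 p values are the smallest that these designs can give. The tests treated libraries with the same donor number as independent. Where such libraries came from the same pool, the p values do not allow for it. In each of the 4 comparisons no library of one group overlapped the other within its stratum, and leaving out any 1 library kept the differences within −3.60 to −3.36 for tissue, −2.10 to −1.86 for MHCII level, −6.83 to −6.06 for LP monocytes and −8.79 to −8.03 for tumour monocytes. Across all 24 libraries the log2 RPKM of the genes had a Pearson r of 0.07, given as a description of libraries that share 8 groups.

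**Figure D2:**
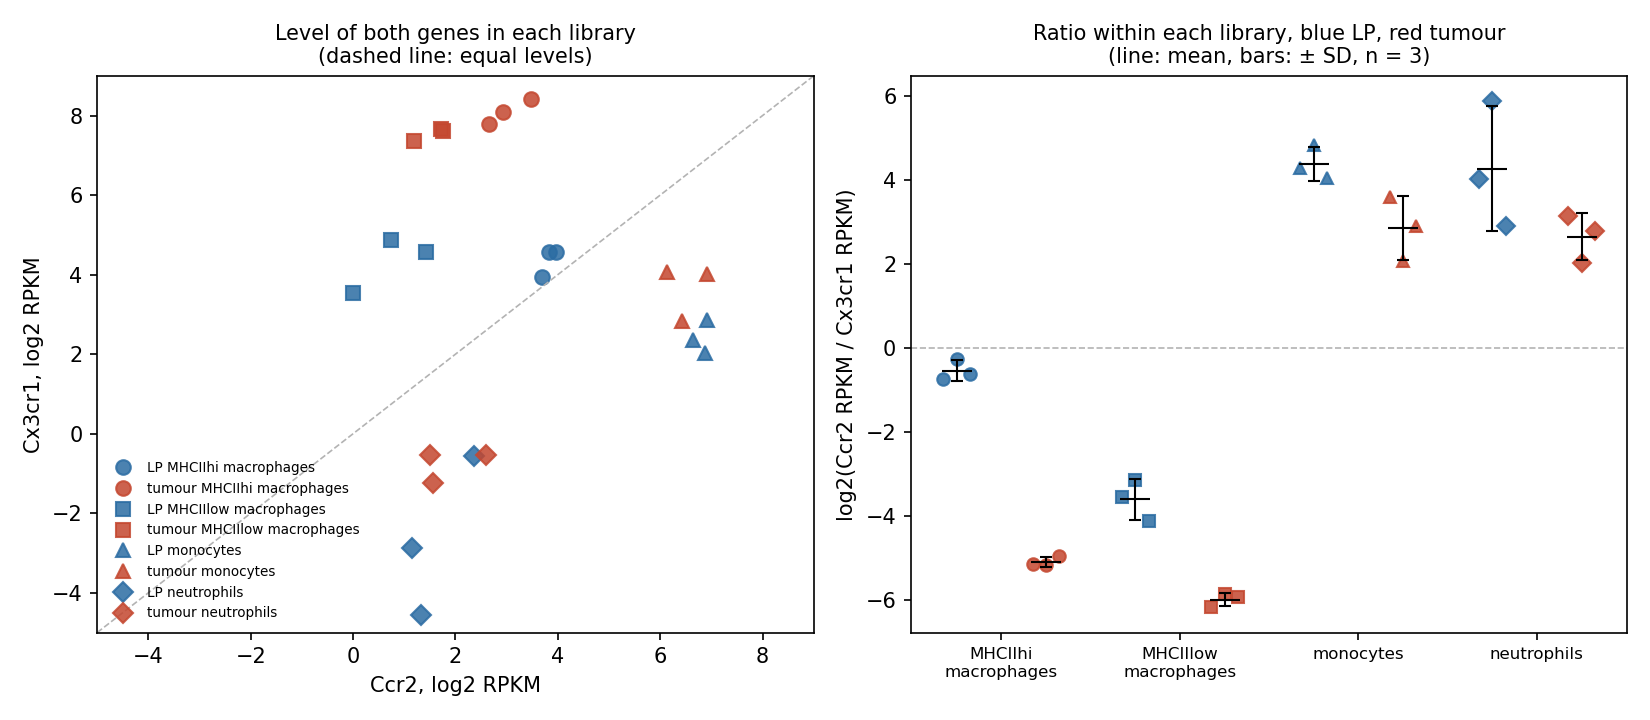
Left, *Cx3cr1* against *Ccr2* (log2 RPKM) in 24 libraries, with a dashed line at equal levels; right, the log2 ratio of *Ccr2* to *Cx3cr1* in each library, with the mean and ± SD of 3 libraries. Monocytes lay under the dashed line and macrophages above it, from a mean ratio of −0.53 in LP MHCIIhi to −5.98 in tumour MHCIIlow macrophages.

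By Pearson r over the 24 libraries, among 5275 genes with a group mean RPKM of at least 10, the patterns most like that of *Ccr2* belonged to *Ms4a4c* (r = 0.96), *Havcr2* (0.94), *Tgfbi* (0.92), *Irf5* (0.90) and *Mapkapk3* (0.89). Among the patterns most like that of *Cx3cr1* were those of *Glb1* (0.97), *Tep1* (0.97), *Hfe* (0.96) and *Rtcb* (0.96). For the other receptors the genes most alike were *Osbpl9* (0.99) for *Ccr1*, *Nrros* (0.82) for *Ccr7*, *S100a8* (0.98) for *Cxcr2*, *Plgrkt* (0.97) for *Cxcr4*, *Tgif1* (0.97) for *Ccrl2*, *Slc8a1* (0.96) for *Cmklr1* and *Pbxip1* (0.97) for *Fpr1*. These values describe libraries of 8 groups and carry no test.

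Promoter sequences from RefSeq on GRCm38.p6 were at hand for 8 of the 9 genes, all but *Ccr7*. The 250 bases before each start were searched on both strands for GAGGAA (the core of a site for the myeloid factor PU.1), TGANTCA (AP-1) and ACGTG (the core of a hypoxia response element). GAGGAA occurred at *Cxcr2*, *Ccr1* and *Cmklr1*, and in 23.3% of 32851 promoters. ACGTG occurred at *Ccrl2* and *Cmklr1*, and in 16.6% of promoters. TGANTCA occurred at none of the 8 and in 6.75% of promoters. Shown are *Cxcr2* and *Ccr1*, both highest in neutrophils, and *Ccrl2*, called higher in all tumour populations, each 5′ to 3′ on its gene's strand with the motif in capitals, which for *Cxcr2* and *Ccrl2* is the motif's reverse complement. The windows are chr1:74153744-74153993 (plus strand) for *Cxcr2*, chr9:123968693-123968942 (minus strand) for *Ccr1* and, for the first of 3 *Ccrl2* starts, chr9:111057519-111057768 (minus strand). A match describes these letters and shows no binding.
Cxcr2: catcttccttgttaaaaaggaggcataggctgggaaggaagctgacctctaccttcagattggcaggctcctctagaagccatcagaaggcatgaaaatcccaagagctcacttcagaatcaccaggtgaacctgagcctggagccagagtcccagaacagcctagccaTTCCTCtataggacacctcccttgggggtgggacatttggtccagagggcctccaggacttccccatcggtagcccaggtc
Ccr1: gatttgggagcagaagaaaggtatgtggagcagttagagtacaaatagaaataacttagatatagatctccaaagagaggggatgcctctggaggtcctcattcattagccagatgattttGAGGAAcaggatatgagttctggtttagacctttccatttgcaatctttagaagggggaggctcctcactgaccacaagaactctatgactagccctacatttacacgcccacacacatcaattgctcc
Ccrl2: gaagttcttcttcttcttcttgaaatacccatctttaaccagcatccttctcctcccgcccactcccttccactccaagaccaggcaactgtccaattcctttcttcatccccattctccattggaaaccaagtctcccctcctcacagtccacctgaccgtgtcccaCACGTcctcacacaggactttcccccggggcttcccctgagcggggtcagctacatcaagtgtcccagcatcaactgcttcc

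Of the receptors known from neutrophils, *Cxcr2* (ENSMUSG00000026180.8, chromosome 1 from 74153989 to 74161246, plus strand) encodes the receptor for CXCL1, CXCL2 and related chemokines. It stood at 1382, 1598 and 1581 RPKM in LP neutrophils and at 929, 1132 and 1080 RPKM in tumour neutrophils. The 3 tumour libraries lay under the 3 LP libraries, with a log2 difference of −0.54 that was not called (SE 1.19, limma adjusted p = 0.772). The error of *Cxcr2* is pooled over 8 groups, of which the macrophages held few reads. It was called with only the 6 neutrophil libraries in the fit (adjusted p = 0.04) and with voom, limma's weighting of read counts (adjusted p = 0.0474). Monocytes held 1.49 to 4.89 RPKM, and the neutrophil excess over them was 9.14 in LP (SE 1.19, limma adjusted p = 2.33e-06) and 9.06 in tumours (limma adjusted p = 2.13e-06). In macrophages *Cxcr2* rested on 8 to 40 reads in LP libraries and on 14, 234 and 42 reads in tumour MHCIIlow libraries. Tumour MHCIIhi libraries I and VII held 30 and 18 reads, and library V held 0 reads, which allows up to 3. *Cxcr2* was lower in LP macrophages than in LP monocytes (log2 difference −4.07 in MHCIIhi, SE 1.19, limma adjusted p = 0.0196, and −3.74 in MHCIIlow, limma adjusted p = 0.0229), and lower in tumour MHCIIhi macrophages than in tumour monocytes (−5.02, limma adjusted p = 0.00275), a value that includes the library at 0 and was lost with only the libraries compared (adjusted p = 0.106). Without library V it was −2.84 (adjusted p = 0.00892), and without library I or VII −6.32 or −5.91. Without LP MHCIIlow library III the LP MHCIIlow difference was −4.46. The LP calls were lost without MHCIIhi library IV (adjusted p = 0.0561) or V (0.0803), without MHCIIlow library II (0.0898) or IV (0.0682), without LP monocyte library IV (0.0762 and 0.085) and, for MHCIIlow cells, with the replicate block as a fixed term (−3.48, adjusted p = 0.112). *Ly6g*, which defines the neutrophil gate, had 0 reads in LP MHCIIhi, LP MHCIIlow and tumour MHCIIhi macrophages and up to 40 reads in tumour MHCIIlow macrophages, the macrophage group with the most *Cxcr2* reads. For *Cxcr2*, 6.42% of its 51-base stretches occur in other genes.

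*Fpr1* (ENSMUSG00000045551.7, chromosome 17 from 17876471 to 17883940, minus strand) encodes the high-affinity receptor for formylated peptides. In neutrophils it rose from 1495, 1706 and 1002 RPKM in LP to 5973, 5044 and 4385 RPKM in tumours, a log2 difference of 1.90 (3.73-fold, SE 0.50, limma adjusted p = 0.00652). It was also higher in tumour macrophages. MHCIIhi cells held 3.38, 2.66 and 5.91 RPKM in LP and 35.3, 36.4 and 49.0 RPKM in tumours, a log2 difference of 3.40 (10.6-fold, SE 0.50, limma adjusted p = 5.48e-05). MHCIIlow cells held 2.63, 16.3 and 16.2 RPKM in LP and 88.8, 63.4 and 51.5 RPKM in tumours, a log2 difference of 2.90 (7.47-fold, limma adjusted p = 2.31e-04), which was 2.02 (4.07-fold, adjusted p = 3.87e-04) without LP library II. No tumour library overlapped an LP library in these 3 populations, and the MHCIIlow and neutrophil calls were each lost in 1 of 15 alternatives (adjusted p = 0.0575 with only the libraries compared and 0.0761 with quantile normalization). In monocytes the libraries did not overlap either, with 20.2, 37.4 and 27.6 RPKM in LP and 104, 72.5 and 47.3 RPKM in tumours, but the log2 difference of 1.37 was not called (SE 0.50, limma adjusted p = 0.095). It was called with voom (adjusted p = 0.0222) and on the log2(RPKM + 1) scale (limma adjusted p = 0.0466). The mean macrophage effect exceeded the monocyte effect by 1.78 (limma adjusted p = 0.0755), which was called in 6 of 27 alternatives. Neutrophils exceeded monocytes by 5.63 in LP (limma adjusted p = 1.35e-08) and 6.16 in tumours (limma adjusted p = 2.88e-09). LP macrophages lay under LP monocytes by −2.87 in MHCIIhi (limma adjusted p = 3.17e-04) and −1.63 in MHCIIlow cells (limma adjusted p = 0.0179). The MHCIIlow call was lost with the replicate block as a fixed term (−0.72, adjusted p = 0.179), with only the libraries compared (adjusted p = 0.171), without MHCIIlow library II (−0.76, adjusted p = 0.127) or without monocyte library IV (−1.41, adjusted p = 0.0756). MHCIIlow against MHCIIhi macrophages of LP gave 1.24 (SE 0.50, limma adjusted p = 0.155), which was called with the replicate block as a fixed term (2.15, adjusted p = 0.00341) and without MHCIIlow library II (2.11, adjusted p = 0.00114). Some neutrophil markers were also called higher in tumour macrophages. Of the 6 listed, 3 were called higher and 0 lower in tumour MHCIIlow macrophages, against 23.3% of all genes, with a median log2 difference of 3.35. In tumour MHCIIhi macrophages 1 was called higher and 0 lower, against 19.5%, with a median of 0.37. The difference of these tumour effects between the subsets was called for 0 of the 6 markers, against 1.46% of all genes. *Mmp8*, a neutrophil collagenase, had 2 to 166 reads in LP and 497 to 1423 reads in tumour MHCIIlow libraries, and *S100a9* 4 to 26 and 58 to 82 reads. The summed RPKM, 23.3 to 40.4 in LP and 38.5 to 52.6 in tumour macrophages, was made up mostly of *Csf3r*. The part of neutrophil RNA in the macrophage values of *Fpr1* was not tested.

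*Ccr1* (ENSMUSG00000025804.4, chromosome 9 from 123962124 to 123968692, minus strand) encodes a receptor for CCL3, CCL5 and related inflammatory chemokines. Among the 9 genes it had the smallest spread between groups, 3.90 on the log2 scale from the highest to the lowest group mean. The order was tumour neutrophils (11.35 ± 0.23 log2 RPKM), LP neutrophils (10.85 ± 0.11), LP monocytes (9.21 ± 0.09), tumour monocytes (9.16 ± 0.28), LP MHCIIhi (8.69 ± 0.12), LP MHCIIlow (8.41 ± 0.17), tumour MHCIIhi (8.00 ± 0.14) and tumour MHCIIlow macrophages (7.45 ± 0.18). Only the 2 monocyte groups overlapped their neighbours in this order. In macrophages *Ccr1* was lower in tumours, with 417, 379 and 447 RPKM in LP against 278, 229 and 262 in tumour MHCIIhi cells and 366, 297 and 365 RPKM in LP against 201, 157 and 170 in tumour MHCIIlow cells. The log2 differences were −0.69 (SE 0.16, limma adjusted p = 0.00379) and −0.96 (limma adjusted p = 1.57e-04), both called in all 15 alternatives. Monocytes gave −0.05 (SE 0.16, limma adjusted p = 0.904), and the mean macrophage effect differed from the monocyte effect by −0.78 (SE 0.20, limma adjusted p = 0.0142). That call was lost with summed library sizes (adjusted p = 0.0573), with quantile normalization (0.329) and without tumour monocyte library I (−0.65, adjusted p = 0.0602). In neutrophils *Ccr1* stood at 2013, 1728 and 1818 RPKM in LP and 2250, 2564 and 3085 RPKM in tumours, a log2 difference of 0.50 that was called (limma adjusted p = 0.0217). It rested on the scaling: with summed reads as library sizes it was 0.03 (adjusted p = 0.892) while the median of all genes was −0.59, and with quantile normalization it was −0.37 (adjusted p = 0.11). The call was also lost without LP library IV (adjusted p = 0.0691), LP library V (0.0534) or tumour library V (0.108). Relative to monocytes, neutrophils were higher by 1.64 in LP (limma adjusted p = 4.62e-08) and 2.19 in tumours (limma adjusted p = 6.48e-10), and with quantile normalization these became 0.35 (adjusted p = 0.0799) and 0.33 (adjusted p = 0.0959). Macrophages were lower by −0.52 in LP MHCIIhi (limma adjusted p = 0.0252), −0.80 in LP MHCIIlow (limma adjusted p = 7.37e-04), −1.16 in tumour MHCIIhi (limma adjusted p = 8.99e-06) and −1.71 in tumour MHCIIlow cells (limma adjusted p = 6.64e-08), and the first of these was lost without MHCIIhi library III (adjusted p = 0.0618) or IV (0.104) or monocyte library IV (0.0838) or V (0.0664).

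*Cxcr4* (ENSMUSG00000045382.6, chromosome 1 from 128588199 to 128592293, minus strand) encodes the receptor for CXCL12, which holds leukocytes in bone marrow. It was lower in tumour than in LP neutrophils, with 186, 142 and 183 RPKM in LP and 61.1, 98.9 and 105 RPKM in tumours. The log2 difference was −0.97 (SE 0.23, limma adjusted p = 0.00307), called in all 15 alternatives. In monocytes it was higher in tumours, with 14.1, 17.9 and 15.8 RPKM in LP and 24.4, 36.5 and 28.5 RPKM in tumours (log2 difference 0.89, SE 0.23, limma adjusted p = 0.0178). That call was lost with summed library sizes (adjusted p = 0.0616) and when LP library III (0.079) or V (0.0553) or tumour library II (0.0966) was left out. The difference between the neutrophil and the monocyte effect, a comparison added after the data had been seen, was −1.86 (SE 0.33, limma adjusted p = 0.00147) and was called in all 21 alternatives. MHCIIlow macrophages held 11.6, 9.61 and 8.67 RPKM in LP and 17.9, 12.9 and 16.5 RPKM in tumours (log2 difference 0.66, limma adjusted p = 0.0454), a call lost in 9 of 15 alternatives, including those without LP library III (adjusted p = 0.101) or IV (0.151) or tumour library I (0.149) or VII (0.119). Summed library sizes lost this call as well (limma adjusted p = 0.0516). For MHCIIhi macrophages the value was 0.62 with overlapping libraries (limma adjusted p = 0.0662), and 0.88 (adjusted p = 0.0107) without tumour library V. Neutrophils had more *Cxcr4* than monocytes, by 3.41 in LP (limma adjusted p = 3.24e-10) and 1.55 in tumours (limma adjusted p = 1.03e-05). The tumour value became 0.41 (adjusted p = 0.137) with summed library sizes, against a median of all genes of −1.49. MHCIIlow macrophages had less than monocytes, by −0.68 in LP (limma adjusted p = 0.0311) and −0.92 in tumours (limma adjusted p = 0.0044), and both calls were lost with summed library sizes (adjusted p = 0.187 and 0.113), where the median of all genes was 0.21 and 0.41. The LP call was also lost without MHCIIlow library III (adjusted p = 0.0756) or IV (0.115) or monocyte library IV (0.11) or V (0.0706).

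*Ccrl2* (ENSMUSG00000043953.8, chromosome 9 from 111054486 to 111057519, minus strand) encodes an atypical receptor that binds chemerin without a known signal of its own and can present it to CMKLR1. In the main analysis it was the only one of the 9 receptors that was called higher in tumours in all 4 populations. Its RPKM was 93.1, 99.7 and 91.8 in LP and 570, 336 and 383 in tumour MHCIIhi macrophages, a log2 difference of 2.14 (4.42-fold, SE 0.28, limma adjusted p = 1.40e-05). MHCIIlow macrophages held 68.6, 76.4 and 78.5 in LP and 370, 210 and 146 in tumours, a log2 difference of 1.59 (3.02-fold, limma adjusted p = 2.71e-04). The tumour libraries lay above all LP libraries of the same population throughout. Monocytes held 114, 135 and 70.6 RPKM in LP and 619, 573 and 387 in tumours (log2 difference 2.33, 5.02-fold, limma adjusted p = 2.58e-05). Neutrophils held 1779, 1753 and 1610 RPKM in LP and 4204, 5191 and 3954 in tumours (log2 difference 1.37, 2.58-fold, limma adjusted p = 8.90e-04). The first 3 of these calls held in all 15 alternatives, and the neutrophil call in 14, being lost with quantile normalization (adjusted p = 0.0793). With summed library sizes the neutrophil difference was 0.90 (adjusted p = 0.00813). The neutrophil effect was called smaller than the monocyte effect with quantile normalization (−1.72, adjusted p = 0.0141) and summed library sizes (−1.27, adjusted p = 0.0238), and not in the main analysis. Neutrophils exceeded monocytes by 4.06 in LP (limma adjusted p = 3.98e-10) and 3.10 in tumours (limma adjusted p = 1.27e-08), and tumour MHCIIlow macrophages lay under tumour monocytes by −1.20 (limma adjusted p = 0.00231, and 0.0691 with only the libraries compared). For MHCIIlow against MHCIIhi macrophages in tumours, *Ccrl2* was called lower with the replicate block as a fixed term (−0.90, adjusted p = 0.0223) and without MHCIIlow library I (−1.26, adjusted p = 0.0185).

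*Cmklr1* (ENSMUSG00000042190.8, chromosome 5 from 113612354 to 113650426, minus strand) encodes a signalling receptor for chemerin. It was low throughout, at 1.43 to 3.56 RPKM in the tumour macrophage and monocyte libraries and 0.738 to 2.88 RPKM in those of LP. Neutrophils held 1, 3 and 17 reads in LP and 5, 6 and 0 reads in tumours. Its level in neutrophils was thus at or near 0, and lower than in monocytes by −5.26 in LP (SE 1.13, limma adjusted p = 5.70e-04) and −6.30 in tumours (limma adjusted p = 7.84e-05), values that depend on the prior count added to libraries with few reads. Leaving out 1 neutrophil library moved them to between −6.22 and −4.23 in LP and between −7.51 and −4.32 in tumours. No population showed a call for tumour against LP, with log2 differences of 0.38 in MHCIIhi macrophages (SE 1.13, limma adjusted p = 0.874), 1.31 in MHCIIlow macrophages (limma adjusted p = 0.459), 0.45 in monocytes (limma adjusted p = 0.879) and −0.60 in neutrophils (limma adjusted p = 0.726). The 3 tumour MHCIIlow libraries, at 2.996, 2.83 and 2.23 RPKM, lay above the 3 LP libraries, at 1.96, 0.738 and 0.865 RPKM, and the difference was called on the log2(RPKM + 1) scale (adjusted p = 0.00651). Of these 2 chemerin receptors, *Ccrl2* thus had its highest group means in neutrophils and *Cmklr1* its lowest.

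*Ccr7* (ENSMUSG00000037944.8, chromosome 11 from 99144196 to 99155077, minus strand) encodes the receptor for CCL19 and CCL21. Its highest levels were in LP neutrophils (72.7, 74.9 and 144 RPKM), LP MHCIIhi macrophages (54.4, 60.7 and 41.3 RPKM) and LP monocytes (30.6, 35.3 and 27.1 RPKM). In the tumour counterparts it stood at 1.54, 12.3 and 16.0 RPKM in neutrophils, 13.2, 10.96 and 5.02 RPKM in MHCIIhi macrophages and 5.40, 15.1 and 24.7 RPKM in monocytes. No tumour library overlapped an LP library in these 3 populations. *Ccr7* was lower in tumour neutrophils (log2 difference −3.78, 13.7-fold, SE 0.85, limma adjusted p = 0.00207), a call lost in 1 of 15 alternatives, with only the libraries compared (adjusted p = 0.0522). Without tumour library I the difference was −2.72 (6.57-fold) and without tumour library V −4.40 (21.1-fold). It was lower in tumour MHCIIhi macrophages too (−2.52, limma adjusted p = 0.0429), but 8 of 15 alternatives lost that call, among them every fit without 1 of the 6 libraries: LP library III (adjusted p = 0.101), IV (0.114) or V (0.0746) or tumour library I (0.0559), V (0.0687) or VII (0.165). Summed library sizes also lost it (limma adjusted p = 0.0564). The monocyte difference of −1.29 was not called (limma adjusted p = 0.411). LP MHCIIlow libraries were spread from 0.711 to 13.2 RPKM and tumour MHCIIlow libraries from 2.25 to 4.95 RPKM, with a difference of −0.05 (limma adjusted p = 0.991). In LP, MHCIIlow macrophages lay under MHCIIhi macrophages by −3.81 (limma adjusted p = 0.00831) and under monocytes by −3.07 (limma adjusted p = 0.01), and without MHCIIlow library II these became −2.62 (adjusted p = 0.0575) and −1.88 (adjusted p = 0.0811), and without library III −4.73 and −3.99. The difference from monocytes was also lost with the replicate block as a fixed term (−1.86, adjusted p = 0.0616) and with only the libraries compared (adjusted p = 0.086). LP neutrophils against LP monocytes gave 1.58 without a call (SE 0.85, limma adjusted p = 0.124), although the libraries did not overlap, and a call with the replicate block as a fixed term (adjusted p = 0.0338), with voom (0.0037) and with only the libraries compared (0.00639).

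*Ccr7* was called lower in tumour neutrophils and MHCIIhi macrophages, was lower without a call in monocytes, and differed by −0.05 in MHCIIlow macrophages. Dendritic cell markers had lower sums in tumours in all 4 populations. Of 9 such genes listed, 8 were in the table (*Flt3*, *Zbtb46*, *Xcr1*, *Clec9a*, *Cd209a*, *Dpp4*, *Fscn1* and *Ccl22*), and their summed RPKM ranged from 29.2 to 63.5 in neutrophils of LP and from 1.19 to 6.87 in those of tumours. It was 23.4 to 27.3 in LP and 2.95 to 6.71 in tumour MHCIIhi macrophages, 9.95 to 16.1 in LP and 4.86 to 7.79 in tumour monocytes, and 6.93 to 9.44 in LP and 1.42 to 3.25 in tumour MHCIIlow macrophages. The LP neutrophil library with the most *Ccr7*, library V at 144 RPKM, was also the one with the highest sum, 63.5, while LP MHCIIlow library II had a sum of 9.44 and the lowest *Ccr7* level, 0.711 RPKM. Of the 6 markers tested, 4 were called lower and 0 higher in tumour neutrophils, where 32.2% of all genes were called. In tumour MHCIIhi macrophages 2 were lower and 0 higher, against 19.5%. In tumour MHCIIlow macrophages 1 was lower and 0 higher, against 23.3%, and in monocytes 0 were called, against 9.29%. *Flt3* had 0 reads in LP MHCIIlow and *Cd209a* 0 reads in tumour MHCIIlow macrophages. The summed RPKM of 3 B cell markers (*Cd79a*, *Cd79b* and *Ms4a1*) was 4.98, 8.54 and 13.2 in LP neutrophils and 0.399, 0.562 and 6.66 in tumour neutrophils, highest in library V of each tissue, as was *Ccr7*. In MHCIIhi macrophages it was 5.57 to 6.84 in LP and 5.12 to 10.5 in tumours. The part of either cell type in the *Ccr7* values was not tested.

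**Figure D3:**
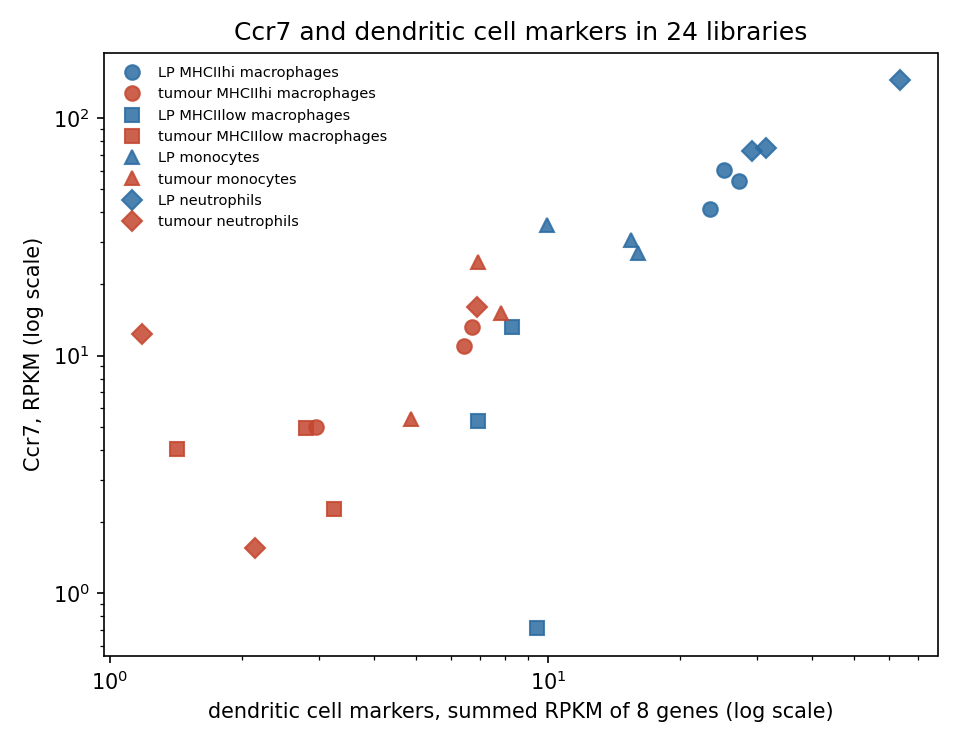
*Ccr7* (RPKM, log scale) against the summed RPKM of 8 dendritic cell markers (log scale) in 24 libraries, with LP in blue, tumours in red and 1 symbol per population. LP neutrophils lay at the upper right, from 29.2 on the marker axis and 72.7 on the *Ccr7* axis, and no tumour library exceeded 7.79 on the marker axis.

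**Figure D4:**
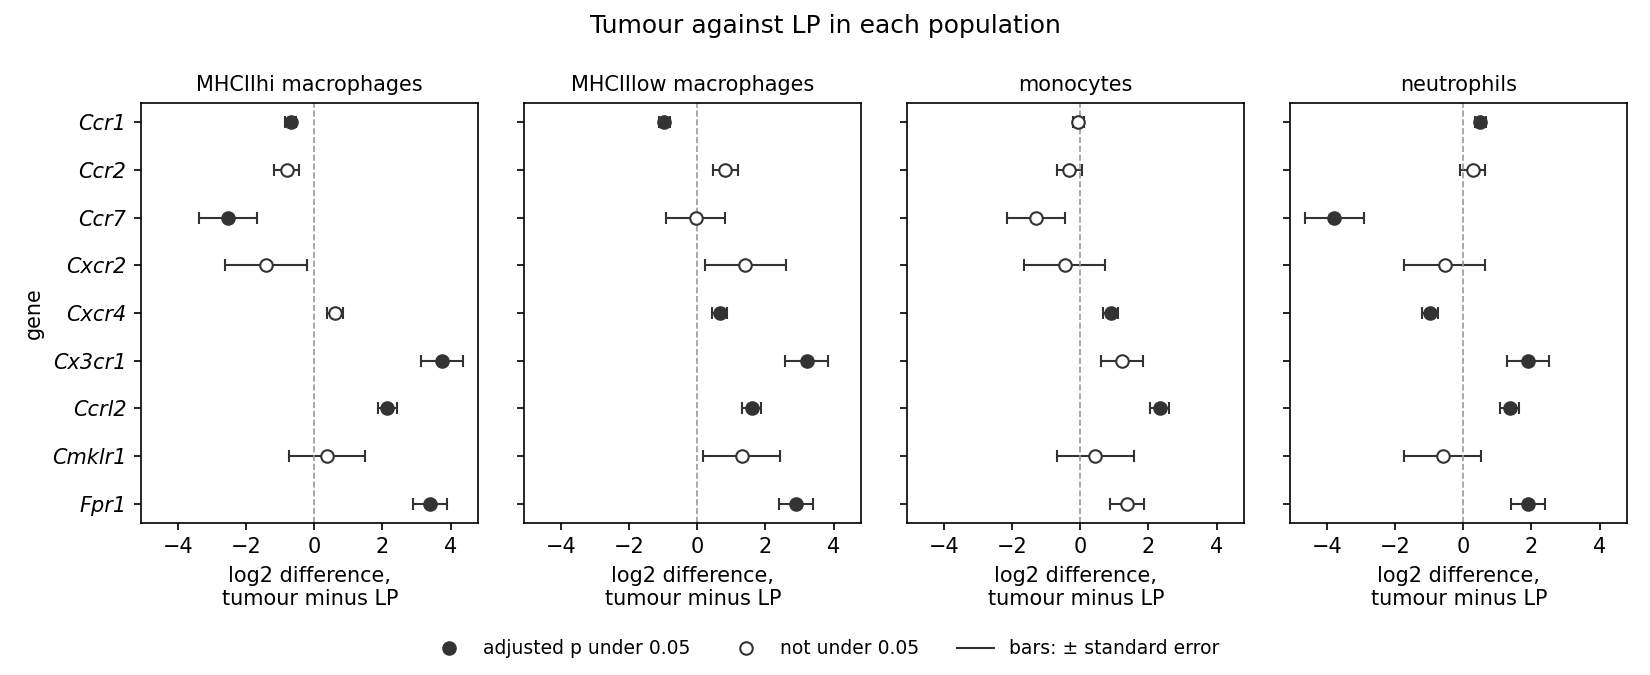
Log2 difference, tumour minus LP, of each receptor in the 4 populations (horizontal axes), with bars of ± 1 standard error; filled points had a limma adjusted p under 0.05. *Ccrl2* was called higher in all 4 panels, and *Cx3cr1* reached 3.75 in MHCIIhi and 3.21 in MHCIIlow macrophages.

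Counted over the 9 receptors, tumour against LP gave 5 calls in MHCIIhi macrophages (3 higher, 2 lower), where 19.5% of all genes tested were called, and 5 in MHCIIlow macrophages (4 higher, 1 lower), against 23.3% of all genes. Monocytes had 2 calls, both higher (*Cxcr4* and *Ccrl2*), against 9.29% of all genes, and neutrophils 6 (4 higher, 2 lower), against 32.2%. The median log2 difference of the 9 was 0.38, 1.31, 0.45 and 0.28 in these populations, and that of all genes tested 0.00, 0.06, 0.00 and −0.12. Called lower in any population were *Ccr1*, *Ccr7* and *Cxcr4*. The 4 comparisons rest on different libraries, but the fit pools their error.

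Against monocytes, 5 of the 9 were called in LP MHCIIhi macrophages (1 higher, 4 lower), where 20.1% of all genes were, and 4 in tumour MHCIIhi macrophages (1 higher, 3 lower), against 32.1%. In MHCIIlow macrophages 7 were called in LP (1 higher, 6 lower) against 29.5% of all genes, and 5 in tumours (1 higher, 4 lower) against 32.0%. With the replicate block as a fixed term the count of 7 became 4. The receptor called higher was *Cx3cr1* each time. In neutrophils 8 of the 9 were called in each tissue, against 54.5% of all genes in LP and 58.1% in tumours. The same 5 were higher in both (*Ccr1*, *Cxcr2*, *Cxcr4*, *Ccrl2* and *Fpr1*), the same 3 lower (*Ccr2*, *Cx3cr1* and *Cmklr1*), and *Ccr7* was not called. These comparisons share the monocyte libraries of their tissue.

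MHCIIlow against MHCIIhi macrophages gave 2 calls in LP, *Ccr2* and *Ccr7*, both lower, where 7.7% of all genes were called. In tumours it gave 0 calls among the 9 with limma, where 1.13% of all genes were called. At an unadjusted p under 0.05 there were 5, with voom 1 call (*Ccr2*), and with the replicate block 2 calls as a fixed term (*Ccr2* and *Ccrl2*) and 1 as a random effect (*Ccr2*). The 1.13% holds for adjusted p in the main fit only. The share of all genes at these other settings is not given, so these counts have no comparison. Tests of whether the tumour effect differed between populations called 0 of the 9 with limma for MHCIIlow against MHCIIhi macrophages (1.46% of all genes), where *Ccr2* alone had an unadjusted p under 0.05 and was called with voom. They called 1 for macrophages against monocytes (*Ccr1*, against 9.19%) and 1 for neutrophils against monocytes (*Cxcr4*, against 9.11%).

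Other genes of the same system were read from lists of related receptors, ligands and signalling proteins. For every list that follows, the share of all genes tested that was called for tumour against LP is the comparison. It was 19.5% in MHCIIhi macrophages, 23.3% in MHCIIlow macrophages, 9.29% in monocytes and 32.2% in neutrophils. Among 8 other chemoattractant receptors tested, 1 was called higher and 2 lower in tumour MHCIIhi macrophages, 1 higher and 2 lower in MHCIIlow macrophages, 2 higher and 1 lower in monocytes, and 2 higher and 3 lower in neutrophils. *Fpr2*, the relative of *Fpr1*, was higher in tumours by 0.96 in MHCIIhi macrophages (SE 0.22, limma adjusted p = 0.00323), by 2.32 in MHCIIlow macrophages (limma adjusted p = 2.48e-07) and by 0.73 in monocytes (limma adjusted p = 0.0384). *C5ar1*, the receptor for the complement fragment C5a, was lower in tumour macrophages, by −0.83 in MHCIIhi (limma adjusted p = 3.98e-04) and −1.25 in MHCIIlow cells (limma adjusted p = 3.59e-06). *Ltb4r1*, the leukotriene B4 receptor, was lower by −3.83 in tumour MHCIIhi macrophages (SE 0.37, limma adjusted p = 3.63e-07). This effect was not shared alike by the subsets: the tumour effect in MHCIIlow minus that in MHCIIhi macrophages was 4.04 (SE 0.52, limma adjusted p = 3.87e-04). The list's median differences were −0.45, −0.04, 0.29 and −0.77 in the order given. Of 9 other chemokine receptors tested, 0 were called higher and 3 lower over the 4 populations, namely *Xcr1* in MHCIIhi macrophages and *Cxcr6* and *Ccr10* in neutrophils. Several of these genes had few reads, and no median is given. Of 2 atypical receptors tested, *Ackr1* was called lower in tumour monocytes and neutrophils. Its mean in LP monocytes was 1.06 RPKM, close to the filter of 1 RPKM.

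Among 18 ligands of the 9 receptors tested, 1 was higher and 6 lower in tumour MHCIIhi macrophages, 1 higher and 7 lower in MHCIIlow macrophages, 4 higher and 2 lower in monocytes, and 6 higher and 6 lower in neutrophils, with medians of −0.51, −1.13, 0.05 and 0.03. *Ccl2*, the main ligand of CCR2, was lower in tumour MHCIIlow macrophages (7.99 ± 0.39 log2 RPKM in LP and 5.71 ± 0.40 in tumours, log2 difference −2.28, limma adjusted p = 0.00144). *Cxcl12*, the ligand of CXCR4, had 297 to 398 reads in LP MHCIIlow macrophages and 0 reads in all 3 tumour libraries. *Ccl21a*, a ligand of CCR7, had 24 to 84 reads in LP and 0 in all tumour MHCIIhi libraries. Both are known from stromal cells, and fibroblast markers moved the same way: the summed RPKM of 5 such genes was 18.3 to 51.7 in LP and 0.318 to 0.644 in tumour MHCIIlow macrophages, and 6.43 to 19.1 in LP and 0.177 to 1.17 in tumour MHCIIhi macrophages. Their part in these ligand values was not tested. *Cxcl2*, a ligand of CXCR2, was higher in tumour monocytes (log2 difference 1.41, SE 0.41, limma adjusted p = 0.037).

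Of 23 genes of receptor signalling and desensitisation tested, 10 were higher and 4 lower in tumour MHCIIhi macrophages, 9 and 5 in MHCIIlow macrophages, 5 and 1 in monocytes, and 10 and 3 in neutrophils, with medians of 0.51, 0.53, 0.29 and 0.55. *Pik3r5*, a regulatory subunit of the PI3-kinase that G proteins activate, was lower in tumour MHCIIhi (−1.98, SE 0.20, limma adjusted p = 5.59e-07) and MHCIIlow macrophages (−2.10, limma adjusted p = 2.48e-07). *Pik3cg*, its catalytic partner, was higher in tumour MHCIIhi macrophages (1.63, limma adjusted p = 6.98e-04). *Grk6*, a kinase that desensitises chemokine receptors, was higher in tumour monocytes (1.29, SE 0.33, limma adjusted p = 0.0146).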

How the data were processed

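The members and the lists of related genes and markers were chosen with earlier results of these data known. Per the labels and the methods, the authors made modified SMARTSeq v2 libraries, which carry neither strand nor molecular identifiers, with spike-in RNA, and sequenced paired 51-base reads. They aligned them with STAR 2.3 to GRCm38 (mm10), assigned reads to GENCODE genes by featureCounts 1.5 and dropped genes with few reads. edgeR is named in the submitters' processing notes. The deposited values are log2 RPKM of 17301 genes in 24 libraries. All 415224 values came back as whole reads (within 0.05 of a read) for a prior count of 0.25 reads.

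Groups came from the labels. limma 3.58.1 (R 4.3.3; trended variance) was fitted to the deposited log2 RPKM with 8 group means over all 24 libraries and 12878 genes whose mean RPKM reached 1 in a group, and p-values were adjusted by Benjamini-Hochberg within each of 15 comparisons, with a threshold of 0.05. Fold changes of genes with few reads depend on the prior count. Ratios were compared by two-sided exact permutation in Python 3.11.15 with scipy 1.17.1. Alternatives were log2(RPKM + 1), other filters and scalings (chosen after the data were seen: summed reads as library sizes), voom on the recovered reads, only the libraries compared, the donor number as a replicate block within a tissue, and leaving out each library. The donor numbers were the only pairing: same-numbered libraries of a tissue had correlations of deviations from −0.07 to 0.25 (median 0.02, 29 pairs), so the block was not part of the main fit. All members were named, related genes by the largest called differences of their list (*Cx3cl1* was named after its values were seen), and like patterns by Pearson r. Gene coordinates came from GENCODE M21. Counting precision limits genes with few reads, and intervals were not computed. A like pattern, a monocyte marker and a B cell marker are not reported here, and both markers were taken out of their lists and sums.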

Additional observations from a re-analysis of the deposited data

Results flagged for a closer look

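The effect of tumour against LP on *Ccr1* went opposite ways in macrophages and neutrophils, every tumour library lying under every LP library in MHCIIhi (log2 difference −0.69) and MHCIIlow macrophages (−0.96) and above it in neutrophils. These differences between populations were not tested, and the neutrophil direction turned with quantile normalization. The tested difference between the mean macrophage effect and the monocyte effect on *Ccr1* was −0.78 (SE 0.20, limma adjusted p = 0.0142). It was called in 24 of 27 alternatives and lost with summed library sizes (adjusted p = 0.0573), quantile normalization (0.329) and without tumour monocyte library I (0.0602).

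*Cxcr4* went up in every tumour library of MHCIIlow macrophages (log2 difference 0.66) and monocytes (0.89) relative to LP, and down in every tumour library of neutrophils. The difference between MHCIIlow macrophages and neutrophils was not tested. The tested difference between neutrophils and monocytes was −1.86 (SE 0.33, limma adjusted p = 0.00147), and the comparison was added after the values had been seen.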

How the results depend on the processing

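Counts of receptors called changed by more than 1.5 times in these cases. For tumour minus LP, MHCIIlow macrophages had 3 with only the libraries compared, monocytes 4 on the log2(RPKM + 1) scale, 4 with voom and 1 with summed reads as library sizes, and neutrophils 3 with quantile normalization. MHCIIlow macrophages minus monocytes in LP had 4 with the replicate block as a fixed term. MHCIIlow minus MHCIIhi macrophages had 1 in LP with only the libraries compared, and in tumours 1 each on the log2(RPKM + 1) scale, with a filter at 5 RPKM, quantile normalization, median centring, voom or the replicate block as a random effect, and 2 with the block as a fixed term. The difference of tumour effects had 1 with voom between macrophage subsets, and between macrophages and monocytes 2 each on the log2(RPKM + 1) scale, with quantile normalization, only the libraries compared or summed reads, and 3 with voom, and between neutrophils and monocytes 2 with quantile normalization and 2 with summed reads. Without 1 library, counts for tumour minus LP were 4 to 5 in MHCIIhi and MHCIIlow macrophages, 1 to 2 in monocytes and 4 to 5 in neutrophils. Against monocytes they were 2 to 4 in LP MHCIIhi, 3 to 6 in LP MHCIIlow, 4 to 4 in tumour MHCIIhi, 5 to 5 in tumour MHCIIlow and 8 to 8 in neutrophils of both tissues. For MHCIIlow minus MHCIIhi macrophages they were 2 to 2 in LP and 0 to 1 in tumours, and for the differences of tumour effects 0 to 1 between macrophage subsets and 0 to 2 between macrophages and monocytes. Directions of tumour minus LP turned, mostly for differences near 0: *Cxcr2* in MHCIIhi macrophages (0.0001 on the log2(RPKM + 1) scale, −2.71 to 0.77 without 1 library), *Ccr7* in MHCIIlow macrophages (0.51 with voom, −1.23 to 0.87 without 1 library), *Ccr1* in monocytes (0.032 with median centring, −0.18 to 0.092 without 1 library) and in neutrophils (−0.37 with quantile normalization), *Ccr2* in neutrophils (−0.19 with summed reads, −0.078 to 0.65 without 1 library) and *Cmklr1* in neutrophils (0.011 on the log2(RPKM + 1) scale, 0.33 with voom, −1.81 to 1.39 without 1 library). The cause was not tested. The replicate block changed no other call than those given beside their results. Low reads limit *Cxcr2*, *Cx3cr1* and *Cmklr1* in the populations where they are near 0.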
